A study of Mus musculus with 6 samples.

Results

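The myogenic regulators described here are 9 genes that specify skeletal muscle or carry its early programme: Myod1, Myog, Myf5, Myf6, Mef2c, Cdh15, Rbm24, Six4 and Eya1. They were taken by gene symbol from the transcript names of the deposited files, and all 9 were found, as 52 of 131100 transcripts and 9 of 52550 genes. The samples were 6 mouse medulloblastomas, a malignant tumour of the cerebellum, of which 3 were labelled wild type for EED and 3 were labelled Eed mutant. Eed belongs to the core of PRC2, the Polycomb complex that keeps many developmental genes silent by marking their histones. The sources used here do not give the mutant allele, the tumour model, the strain, the age or whether the tumours came from separate animals. The p-values thus reflect the spread among these libraries alone, which may be technical.

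Skeletal muscle identity is set by 4 related basic helix-loop-helix proteins. Myod1 and Myf5 commit cells to the lineage, while Myog and Myf6 act in differentiation. They bind the E-box, a short DNA motif, together with E proteins, and Id proteins oppose them. Homeodomain factors such as Six4, with Eya coactivators, act upstream of them and on their targets through a motif called MEF3, and Mef2 proteins cooperate with them. Myod1 RNA has also been described in mouse medulloblastoma.

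Each library held 26186236 to 26425111 estimated counts, and estimated counts were summed per gene. CPM is a gene's count scaled to a common library total with TMM factors, and TPM is the length-scaled level used to compare genes with one another. As a check of the tissue, all 11 markers of granule-lineage medulloblastoma that were looked up, such as Atoh1, Gli1 and Barhl1, had counts in every library. They summed to 4361 to 4772 CPM in wild type and 4530 to 4766 CPM in the mutants. DESeq2 called 3 of them higher and 0 lower in the mutants, beside 3.19% and 2.51% of all genes it adjusted. The deposited file names carry a code of unstated meaning. Wild-type replicate 2 carries the same one as mutant replicates 1 and 2, wild-type replicate 3 carries that of mutant replicate 3, and wild-type replicate 1 has its own, so values within the shared codes are given below for the genes that differed.

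Myod1 was the most abundant of the 9 genes in both groups, and Myf5 and Myf6 were silent or nearly so. On the TPM scale Myod1 ran from 41.7 to 72.9 over the 6 libraries, with a median of 52.6, and did not overlap with any other member. Rbm24 (13.9 to 31.4 TPM), Mef2c (17.3 to 31.4 TPM) and Cdh15 (10.9 to 22.9 TPM) followed, and their ranges overlapped. Myog spanned 0.0417 to 28.1 TPM, which overlapped the ranges of the genes above and below it. Eya1 was at 4.67 to 8.05 TPM and Six4 at 0.197 to 0.719 TPM, without overlap between them. Myog ran from 1 to 680 estimated counts over the 6 libraries, and the lowest is under the 3 counts that a count of 0 allows, so no fold is given for its spread. The other 6 genes with counts in every library spanned 1.72-fold to 3.64-fold in TPM from the lowest to the highest library.

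**Figure D1:**
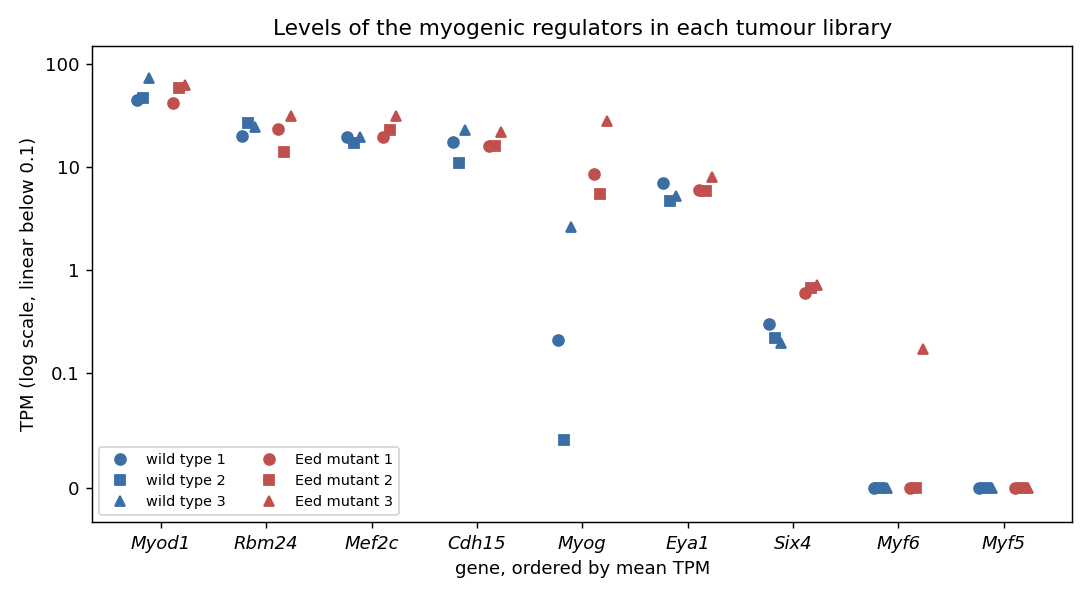
TPM of each gene in each library on a log axis that is linear below 0.1, with genes ordered by mean TPM, colours for genotype and marker shapes for replicate number. Myod1 sits at 41.7 to 72.9 in all 6 libraries, Myog lies at 0.0417 to 2.63 in wild type and 5.46 to 28.1 in the mutants, and Myf5 is at 0 throughout.

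Of the 9 genes 7 had enough counts to be tested between genotypes. edgeR's quasi-likelihood test, adjusted over all 19145 genes tested, called none of them and no gene of the whole table (0% called, smallest adjusted p = 0.0808), while 3459 genes (18.1%) had an unadjusted p under 0.05. By the unadjusted p, 4 of the 7 were higher in the mutants (Six4, Myog, Mef2c and Eya1), beside 9.29% of all genes tested, and 0 were lower, beside 8.78%. DESeq2 called 923 of the 16200 genes it adjusted (5.7%). Among the members it called 1 higher, Six4, beside 3.19% of those genes, and 0 lower, beside 2.51%. The libraries of the 2 groups did not overlap for 3 members, Myog, Mef2c and Six4, and for 25.1% of all genes tested. All 3 were higher in the mutants, beside 13.1% of all genes, and 0 were lower, beside 11.9%. The median log2 fold change, mutant minus wild type, was 0.46 over these 7 genes and -0.01 over all genes tested. Myog cleared the filter on low counts only through the mutant libraries, so it could be tested only because it was high there, and these counts and this median are descriptions.

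**Figure D2:**
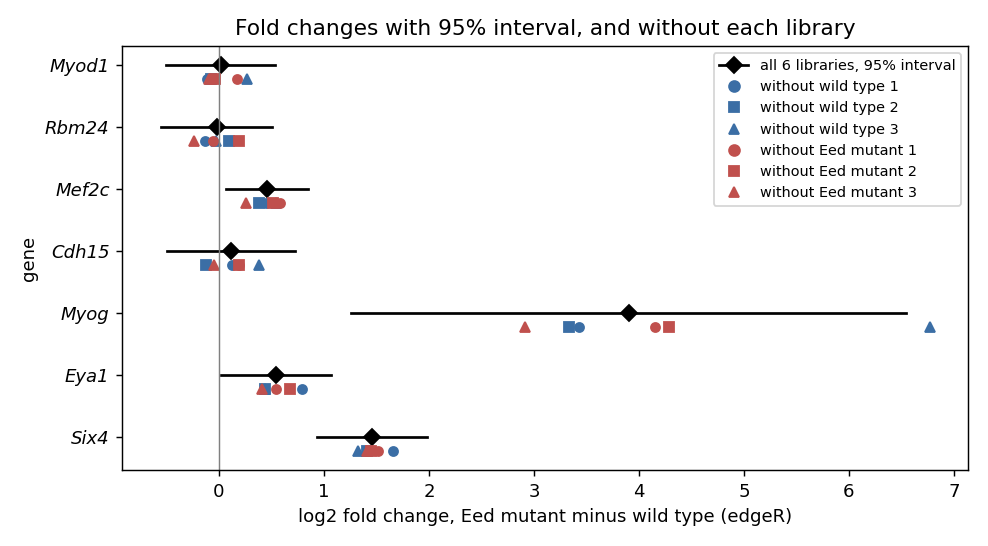
Log2 fold change in edgeR (mutant minus wild type) of the 7 tested genes, with diamonds and lines for all 6 libraries and the 95% interval, and coloured markers for the fit without each library. Six4 stays between 1.33 and 1.66 and Myog between 2.91 and 6.77, while Myod1, Rbm24 and Cdh15 fall on both sides of 0.

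Myod1, the factor that commits cells to the muscle lineage, was well expressed in every tumour of either genotype. Its gene lies on chromosome 7 (46376474 to 46379099, GRCm38, plus strand) and has a single annotated transcript. Its level was 50.3, 53.3 and 81.5 CPM in wild-type replicates 1 to 3, against 48.0, 67.5 and 71.9 CPM in mutant replicates 1 to 3. The highest library was a wild-type one, the lowest a mutant one, and the groups overlapped. The log2 fold change was 0.02 with a 95% interval of -0.50 to 0.54 (edgeR adjusted p = 0.975), and differences within that interval could not be told from none. On this scale a library total of 3 counts corresponds to about 0.114 CPM, so Myod1 was far above detection in each tumour.

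Myog, the factor that switches on muscle differentiation, was near silence in 2 wild-type tumours and present in every mutant. The gene lies on chromosome 1 (134289989 to 134292548, plus strand) and has a single annotated transcript. Its estimated counts were 5, 1 and 62 in wild-type replicates 1 to 3, against 207, 132 and 680 in mutant replicates 1 to 3. The lowest mutant thus had more counts than the highest wild-type library, and within each genotype replicate 3 was the highest. The CPM were 0.861 ± 1.30 in wild type and 12.9 ± 11.2 in the mutants (SD, n = 3), a log2 fold change of 3.90 (SE 1.12, 95% interval 1.26 to 6.55). This did not pass the adjustment over all genes in edgeR (adjusted p = 0.173, unadjusted p = 0.0101) or in DESeq2 (adjusted p = 0.0986).

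Wild-type replicate 3 carried most of the wild-type Myog signal, and the size of the difference turned on it. Without that library the log2 fold change was 6.77 (edgeR adjusted p = 0.104), and DESeq2 then called the gene (adjusted p = 2.63e-06). Within the file code of wild-type replicate 3 and mutant replicate 3, Myog was at 2.36 and 25.7 CPM, a ratio of 10.9 between single libraries. Within the other shared code, wild-type replicate 2 had 1 count, and mutant replicates 1 and 2 were at 7.95 and 5.07 CPM. With the file code as a term the log2 fold change was 4.29 in edgeR (adjusted p = 0.191) and 4.61 in DESeq2, where it passed (adjusted p = 1.77e-12). Wild-type replicate 1 is alone in its code, so it has no part in the genotype difference of that fit. The fit thus rests on 1 wild-type library in each shared code. This DESeq2 fit and the one without wild-type replicate 3 were chosen after the data were seen.

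Set against Myod1 in the same library, Myog kept the separation it had alone. Myod1 spanned only 1.75-fold in TPM, less than the gap between the highest wild-type Myog (2.63 TPM) and the lowest mutant one (5.46 TPM). Dividing by Myod1 thus could not remove the separation, and the ratio is no second observation. Per 100 TPM of Myod1 there were 0.47, 0.0892 and 3.60 TPM of Myog in the wild-type tumours, against 20.5, 9.34 and 44.5 TPM in the mutant ones. Every mutant thus had more Myog per Myod1 than any wild-type tumour. Mutant replicate 1 had the lowest Myod1 of all 6 libraries but more Myog than 4 of the other 5, so the order of the libraries differed between these genes. In bulk tumour RNA, more cells with Myog and more Myog RNA per cell cannot be told apart.

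The promoters of Myog, Six4 and Myf5 are shown because the first 2 differed most between genotypes and the last stayed silent. Each run holds 250 bases before and 50 after the RefSeq start (GRCm38.p6), 5′ to 3′ on the gene's strand. Capitals mark matches to the E-box CANNTG, to MEF3 (TCAGGTT, or AACCTGA when it lies on the other strand) and to the consensus MEF2 site, searched on both strands. No match overlapped another.
Myog promoter, chr1:134289754-134290053, plus strand: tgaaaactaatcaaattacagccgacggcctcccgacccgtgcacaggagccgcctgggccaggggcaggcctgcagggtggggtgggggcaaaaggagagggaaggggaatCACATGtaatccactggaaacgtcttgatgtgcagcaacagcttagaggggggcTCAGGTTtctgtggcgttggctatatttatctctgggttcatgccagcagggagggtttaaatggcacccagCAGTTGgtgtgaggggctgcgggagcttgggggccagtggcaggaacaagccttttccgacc
Six4 promoter, chr12:73113196-73113495, minus strand: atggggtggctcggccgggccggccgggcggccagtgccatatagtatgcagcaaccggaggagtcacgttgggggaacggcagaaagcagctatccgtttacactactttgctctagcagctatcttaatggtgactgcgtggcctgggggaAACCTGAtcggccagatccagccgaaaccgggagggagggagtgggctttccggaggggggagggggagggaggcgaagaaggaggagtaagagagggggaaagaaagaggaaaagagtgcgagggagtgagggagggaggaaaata
Myf5 promoter, chr10:107486085-107486384, minus strand: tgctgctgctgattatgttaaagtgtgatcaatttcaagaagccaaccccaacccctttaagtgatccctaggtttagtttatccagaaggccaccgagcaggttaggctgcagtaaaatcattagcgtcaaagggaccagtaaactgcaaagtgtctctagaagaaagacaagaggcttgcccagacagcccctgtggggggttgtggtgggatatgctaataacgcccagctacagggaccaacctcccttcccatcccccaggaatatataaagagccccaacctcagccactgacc
The Myog window held 2 E-boxes, CACATG and CAGTTG, beginning 138 and 12 bases before the start, and a MEF3 match beginning 84 bases before it. It held no exact match to the MEF2 consensus, and sequences close to that consensus were not searched for. Six4 has 2 RefSeq windows. The one shown held a MEF3 match on the other strand, beginning 97 bases before the start, and no E-box, and the other held none of the 3 motifs. The Myf5 window held none of them either. An E-box stood in 72.3% and a MEF3 match in 4.07% of all 32851 promoter windows of 300 bases, and the consensus MEF2 site in 3.19%. RefSeq windows were matched for 6 of the 9 genes, and Myod1, Myf6 and Eya1 had none. Of the other windows, that of Cdh15 held 4 E-boxes, that of Rbm24 held 2, and of 3 for Mef2c 1 held 2 E-boxes and a MEF3 match, 1 held 1 E-box and 1 held none. These matches describe the letters only.

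Myf5 and Myf6, the remaining members of the family, were at or near 0 in both genotypes. They are neighbours on chromosome 10 (Myf5 107482908 to 107486134, Myf6 107492853 to 107494737, both on the minus strand), 6.72 kb apart. Myf5 had 0 estimated counts in all 6 libraries, which allows up to 3 counts, or about 0.114 CPM, in each. Myf6 had 0 counts in 5 libraries and 3 in mutant replicate 3. Neither gene could be tested, and no fold is given. All 3 mutants thus held Myog and Myod1 RNA with no Myf5 detectable at this depth.

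Six4, a homeodomain factor that acts upstream of the myogenic genes with Eya proteins, was higher in every mutant and was the one member that DESeq2 called, adjusted over all genes, with all 6 libraries and genotype as the only term. Its level was 1.13, 0.819 and 0.728 CPM in wild-type replicates 1 to 3, against 2.28, 2.49 and 2.65 CPM in mutant replicates 1 to 3. The groups were each tight and did not overlap. Six4 rose in DESeq2 by 1.46 on the log2 scale (SE 0.33, adjusted p = 0.000895), from 0.891 ± 0.208 to 2.47 ± 0.182 CPM (SD, n = 3). In edgeR the log2 fold change was also 1.46 (95% interval 0.93 to 1.98), with an unadjusted p of 0.000307 and an adjusted p of 0.107. The DESeq2 call held without each library in turn (adjusted p 0.00162 to 0.0397) and also when the file code was a term (log2 fold change 1.67, adjusted p = 0.0445). These fits were chosen after the data were seen. In the one with the file code, wild-type replicate 1 is alone in its code and has no part in the genotype difference. Within the shared codes the ratios of mutant to wild type were 2.91 and 3.64.

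The higher Six4 counts of the mutants were assigned to the transcript Six4-201. The gene (chromosome 12, 73099609 to 73113456, minus strand) has 2 annotated transcripts, each with 3 exons. The last exon of Six4-202 (73103441 to 73109349) runs through the 4422-base intron of Six4-201 (73104239 to 73108660), so its counts can hold intron signal. Six4-201 had 11.7, 7.05 and 10.6 estimated counts in the wild-type tumours, against 45.8, 53.2 and 60.1 in the mutant ones, a ratio of the means of 5.42. Six4-202 had 18.1, 14.6 and 8.55 counts in the wild-type tumours, against 13.7, 11.6 and 9.91 in the mutant ones, and these groups overlapped. Six4-201 took 42.4% ± 11.7 of Six4 counts in wild type and 81.6% ± 4.43 in the mutants (SD, n = 3; exact permutation test, two-sided, p = 0.1, and 0.45 adjusted over 9 shares). A comparison of 3 with 3 libraries cannot give a smaller p than 0.1 (exact test). This share was chosen after its values were seen. The counts are low, and the split between transcripts is the quantifier's estimate.

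Eya1, a coactivator and phosphatase that pairs with factors such as Six4, was higher in the mutants by less than the spread between tumours could settle. Its level was 12.4, 7.97 and 7.98 CPM in wild-type replicates 1 to 3, against 14.0, 11.1 and 16.3 CPM in mutant replicates 1 to 3. The groups overlapped, since mutant replicate 2 was below wild-type replicate 1. The log2 fold change was 0.55 (95% interval 0.02 to 1.07; edgeR adjusted p = 0.263, DESeq2 adjusted p = 0.148), and 0.22 on the scale of log2(TPM + 1). The gene lies on chromosome 1 (14168954 to 14310235, minus strand). Of its 9 annotated transcripts, Eya1-201 and Eya1-203 took most of the counts. Eya1-203 took 20.5%, 34.9% and 46.2% in the wild-type tumours, against 46.8%, 56.3% and 53.0% in the mutant ones (exact two-sided permutation p = 0.1, and 0.45 adjusted over 9 shares). The annotated lengths of these transcripts, 4347 and 4366 bases, are close, and the split between them is the quantifier's estimate.

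Mef2c, a MADS-box factor that cooperates with the myogenic proteins and is also known from neurons, endothelium and microglia, was modestly higher in the mutants. Its level was 46.5, 41.6 and 52.4 CPM in wild-type replicates 1 to 3, against 53.1, 58.9 and 81.1 CPM in mutant replicates 1 to 3. The groups did not overlap, though mutant replicate 1 was only just above wild-type replicate 3. The log2 fold change was 0.46 (95% interval 0.06 to 0.85; edgeR adjusted p = 0.231, DESeq2 adjusted p = 0.111), and it was 0.26 without mutant replicate 3. The ratios within the shared codes were 1.34 and 1.55. The level of Mef2c in these tumours cannot be assigned to a cell type. Of 6 endothelial markers 2 (Pecam1 and Kdr, by 0.43 and 0.56 on the log2 scale) rose in DESeq2 and the list summed to 87.5 to 119 CPM in wild type and 122 to 138 CPM in the mutants. Of 6 microglial markers 1 (Csf1r, by -0.54) fell in DESeq2, and the list summed to 128 to 183 and 111 to 145 CPM. Over all genes it adjusted, DESeq2 called 3.19% higher and 2.51% lower. No marker of either list was at 0 in any library, and their part in the Mef2c difference was not tested.

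The exon and transcript shares of Mef2c overlapped between the genotypes. Among its 31 annotated transcripts (chromosome 13, 83504034 to 83667080, plus strand), 10 carry a 144-base exon at 83625265 to 83625408 and 7 carry a 138-base exon at 83625470 to 83625607, with no transcript holding both. Transcripts with the first exon had 964, 855 and 1206 estimated counts in the wild-type tumours, against 951, 1285 and 1567 in the mutant ones. Those with the second had 234, 210 and 148 in the wild-type tumours, against 394, 218 and 531 in the mutant ones, and the highest were mutant replicates 1 and 3. As a share of Mef2c the second form took 16.3% ± 4.80 in wild type and 22.5% ± 7.41 in the mutants (SD, n = 3; exact permutation test, two-sided, p = 0.3). A 24-base exon at 83654598 to 83654621 was carried by transcripts with 79.5% ± 4.92 of the counts in wild type and 73.6% ± 7.80 in the mutants (exact permutation p = 0.3). These exon groups were chosen after the values were seen. The main transcript, Mef2c-212, took 72.6% ± 4.94 and 68.5% ± 7.83 (exact permutation p = 0.4).

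**Figure D3:**
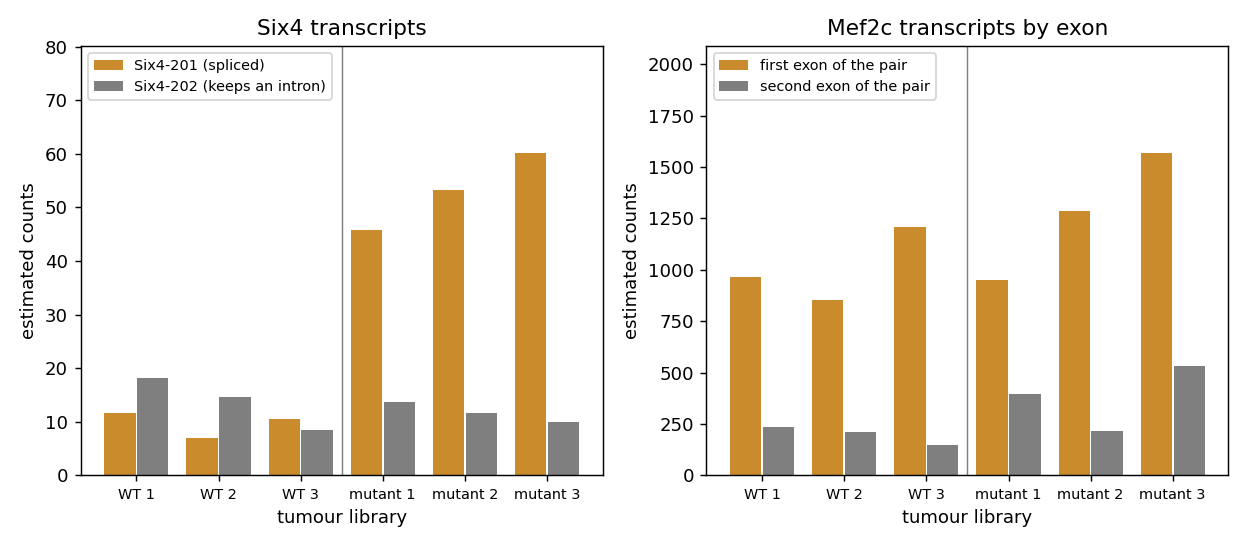
Estimated counts per library for the 2 Six4 transcripts (left) and for Mef2c transcripts grouped by which of 2 alternative exons they carry (right), with separate count axes. Six4-201 stands at 7.05 to 11.7 in wild type and 45.8 to 60.1 in the mutants, while Six4-202 overlaps between the groups. For Mef2c the second exon is highest in mutant replicates 1 and 3.

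Cdh15 and Rbm24 did not separate the genotypes. Cdh15 encodes M-cadherin, an adhesion protein of myoblasts that is also known from the cerebellum, and lies on chromosome 8 (122847966 to 122867397, plus strand). Its level was 37.6, 23.9 and 49.7 CPM in wild-type replicates 1 to 3, against 35.9, 35.8 and 48.4 CPM in mutant replicates 1 to 3. Both the highest and the lowest library were wild type. The log2 fold change was 0.11 (95% interval -0.50 to 0.72; edgeR adjusted p = 0.848). Rbm24, an RNA-binding protein that directs muscle splicing (chromosome 13, 46418434 to 46431095, plus strand), was at 28.7, 39.0 and 33.8 CPM in the wild-type tumours, against 34.7, 22.7 and 42.5 CPM in the mutant ones. Here the extremes were both mutants, and the log2 fold change was -0.02 (95% interval -0.56 to 0.51; edgeR adjusted p = 0.967). Its main transcript, Rbm24-201, took nearly all of its counts in both groups.

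Among other genes that act upstream of the myogenic factors, 15 of 18 had enough counts to test. edgeR called 0 of them, with 5 higher and 0 lower at an unadjusted p under 0.05, and DESeq2 called 2 higher and 0 lower, with a list median log2 fold change of 0.33. Over all genes tested, 9.29% were higher and 8.78% lower at that unadjusted p. DESeq2 called 3.19% higher and 2.51% lower of all genes it adjusted. Pax3, a paired-box factor of early muscle progenitors and the dorsal neural tube, was at 2.27, 2.62 and 2.62 CPM in the wild-type tumours, against 12.9, 6.58 and 13.4 CPM in the mutant ones, and rose in DESeq2 (adjusted p = 9.55e-10). Dach1, a nuclear partner of the Eya proteins, was at 29.0, 29.5 and 37.1 CPM in the wild-type tumours, against 64.1, 51.6 and 58.1 CPM in the mutant ones, and rose by 0.86 on the log2 scale in the same test (adjusted p = 1.53e-06). Both genes were higher in each mutant than in any wild-type library. Eya3 and Eya4 had log2 fold changes of 0.10 and 0.47 and passed neither test (adjusted p = 0.383 and 0.259 in edgeR, 0.542 and 0.144 in DESeq2). Pax7, the factor of muscle stem cells, had counts in only 1 library, mutant replicate 1, at 0.0384 CPM. Of the 15 genes, 2 got past the filter by their mutant levels alone, so the count and median of the list are descriptions.

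Genes whose proteins partner or oppose the myogenic factors differed in both directions. Of 22 listed genes 19 were tested, 5 were higher and 4 lower at an unadjusted p under 0.05, edgeR called 0, and DESeq2 called 2 higher and 0 lower, with a median log2 fold change of 0.07. The shares over all genes were 9.29% higher and 8.78% lower by unadjusted p, and 3.19% and 2.51% in DESeq2. The E protein gene Tcf12 had 238, 241 and 255 CPM in the wild-type tumours, against 288, 281 and 269 CPM in the mutant ones, without overlap (log2 fold change 0.19, edgeR adjusted p = 0.194). The other E protein genes on the list, named here after their values were seen, went apart, each without overlap. Tcf3 had a log2 fold change of 0.24, and the more abundant Tcf4, at 856 to 1132 CPM, one of -0.25 (edgeR adjusted p = 0.210 and 0.218). Hdac4, a deacetylase that restrains Mef2 proteins, went from 61.5, 62.2 and 65.5 to 84.2, 81.3 and 82.8 CPM and rose in DESeq2 (adjusted p = 0.000201), by 0.39 on the log2 scale. Its relative Hdac5 had a log2 fold change of -0.22 (edgeR adjusted p = 0.194). Smyd1, a muscle methyltransferase and Myod1 target, was at 1.59, 2.16 and 1.94 CPM in the wild-type tumours, against 4.53, 2.23 and 8.54 CPM in the mutant ones. It rose by 1.43 on the log2 scale in DESeq2 (adjusted p = 0.031), with mutant replicate 2 only just above the highest wild-type library. Twist1, a helix-loop-helix protein that inhibits Myod1, was at 0.415, 0.379 and 0.418 CPM in the wild-type tumours, against 1.11, 0.653 and 1.02 CPM in the mutant ones, without overlap (log2 fold change 1.19, edgeR adjusted p = 0.152). It and the Id genes were picked after their values were seen. Among the Id genes, Id1 and Id2 both had a log2 fold change of 0.07, Id3 one of -0.40 (edgeR adjusted p = 0.266) and Id4 one of -0.19 (edgeR adjusted p = 0.730).

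Most listed genes that the myogenic factors are known to switch on were higher in the mutants, and their sum ranked the mutants as Myog did. Of 36 listed target genes 35 were tested, 31 were higher and 0 lower at an unadjusted p under 0.05, edgeR called 0, and DESeq2 called 24 higher and 0 lower. Their median log2 fold change was 3.00. The shares over all genes were 9.29% higher and 8.78% lower by unadjusted p, and 3.19% and 2.51% in DESeq2. Of the 35 genes 14 got past the filter by their mutant levels alone. The count and the median are therefore descriptions, and the muscle genes of these tumours were known to be higher when the list was drawn. Summed over the list, targets were at 52.9, 61.3 and 95.3 CPM in wild-type replicates 1 to 3, against 268, 160 and 657 CPM in mutant replicates 1 to 3. The libraries ranked in the same order by this sum as by Myog, except that wild-type replicates 1 and 2 changed places, and Myod1 gave another order. Some single targets, such as Musk and Chrng, ordered the mutants otherwise.

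**Figure D4:**
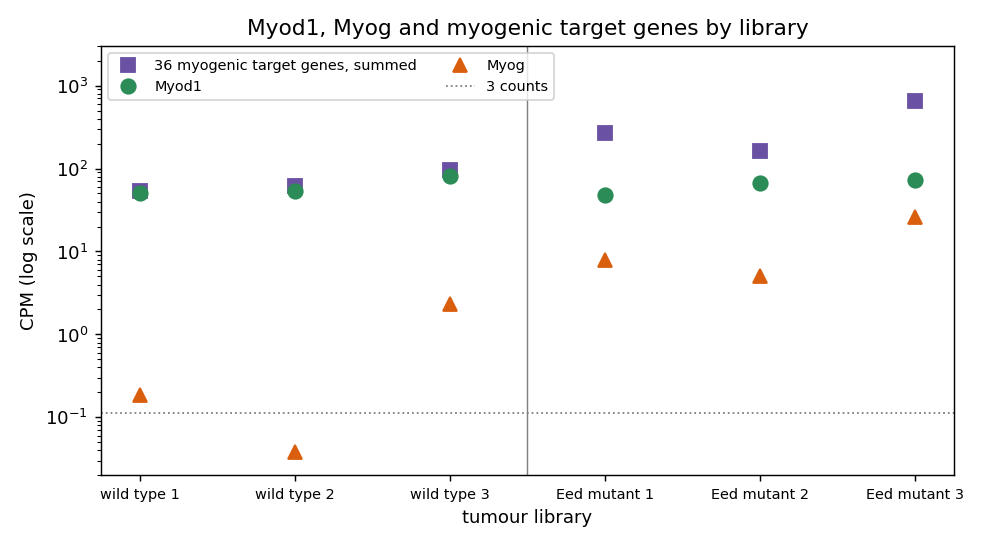
CPM of Myod1, Myog and the sum of 36 myogenic target genes in each library on a log axis, with a dotted line at the level of 3 counts and a vertical line between genotypes. Myod1 stays between 48.0 and 81.5, Myog goes from at most 2.36 in wild type to at least 5.07 in the mutants, and the target sum from at most 95.3 to at least 160.

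The target genes named by the smallest unadjusted p encode contractile or cytoskeletal proteins. Acta1, skeletal actin, was at 0.793, 1.48 and 2.36 CPM in the wild-type tumours, against 12.5, 8.61 and 31.9 CPM in the mutant ones (log2 fold change 3.51, DESeq2 adjusted p = 9.45e-05). Des, the muscle intermediate filament, was at 1.55, 1.97 and 2.05 CPM in the wild-type tumours, against 5.99, 5.45 and 14.6 CPM in the mutant ones (log2 fold change 2.22, DESeq2 adjusted p = 5.50e-06). The troponins Tnnt3 and Tnni2 had log2 fold changes of 3.65 and 3.29 and also passed DESeq2, and both got past the filter by their mutant levels alone. In each of these genes mutant replicate 3 was highest and mutant replicate 2 lowest of the mutants, as for Myog. Fusion genes, picked here after their values were seen, went apart: Mymk, the fusion protein myomaker, was at 0.0757 to 0.57 CPM in wild type and 0.73 to 4.76 CPM in the mutants, while Mymx, its partner, was at 1.14 to 2.04 and 1.23 to 2.38 CPM.

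Markers of mature fibres and of muscle stem cells were measured beside these genes. For comparison, 9.29% of all genes tested were higher and 8.78% lower at an unadjusted p under 0.05. DESeq2 called 3.19% higher and 2.51% lower of all genes it adjusted. Of 12 adult fibre markers 8 were tested, 5 were higher and 0 lower at an unadjusted p under 0.05, and DESeq2 called 3 higher, Atp2a1, Ckm and Mb, of which Atp2a1 and Mb got past the filter by their mutant levels alone. The summed list was at 66.6 to 110 CPM in wild type and 66.4 to 118 CPM in the mutants, with Pvalb, which cerebellar neurons also express, the most abundant gene. The adult fast myosins were close to 0: Myh2 had no counts in wild type and reached 0.379 CPM in mutant replicate 3, Myh1 reached 0.417 CPM and Myh4 0.606 CPM in the same library. Of 8 muscle stem cell markers 6 were tested, and 1 was higher and 1 lower at an unadjusted p under 0.05. By sign alone 2 were higher and 4 lower. DESeq2 called Chodl higher, and the list summed to 233 to 267 CPM in wild type and 205 to 257 CPM in the mutants. The most abundant gene was Itga7, the lower one, at 138 to 145 and 105 to 127 CPM (log2 fold change -0.25, edgeR adjusted p = 0.199). Pax7 and Calcr, the most specific of the 8 markers, were at or below 0.0768 CPM in every library. Of 8 cardiac markers 3 were tested, 1 was higher and 0 lower at an unadjusted p under 0.05, and edgeR and DESeq2 called 0. The higher one was Nppa (log2 fold change 0.90), while Myh6 and Tbx5 had log2 fold changes of -0.74 and -0.11. Nkx2-5, picked after its values were seen, had too few counts to test. It had 0 counts in wild type and 3, 4 and 7 in mutant replicates 1 to 3. Whether muscle cells beside the tumour contributed to the Myog signal was not tested.

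Some markers of other cell types differed with genotype in DESeq2, while edgeR called 0 in each of these lists. Over all genes it adjusted, DESeq2 called 3.19% higher and 2.51% lower. Of 6 pericyte and smooth muscle markers 2 rose in DESeq2, Acta2 by 1.22 and Rgs5 by 0.45 on the log2 scale, and the list summed to 139 to 172 CPM in wild type and 195 to 229 CPM in the mutants. Of 6 mature granule neuron markers 2 fell in DESeq2, Gabra6 and Grin2c, and the list summed to 887 to 1510 CPM in wild type and 804 to 1217 CPM in the mutants. Of 5 Purkinje cell markers 3 fell in DESeq2, with sums of 558 to 870 and 354 to 499 CPM. Of 6 meningeal fibroblast markers 1 fell, with sums of 509 to 545 and 387 to 461 CPM. None of these markers was at 0 in any library, and their part in the myogenic differences was not tested.

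Genes next to the myogenic loci differed in direction. edgeR called none of them, and DESeq2 called only Mnat1 and Mybph. Mnat1, 10.3 kb from Six4, was at 15.4, 14.6 and 15.2 CPM in the wild-type tumours, against 20.8, 21.7 and 20.2 CPM in the mutant ones. It rose by 0.47 on the log2 scale in DESeq2 (adjusted p = 0.00263, against 0.130 in edgeR). Trmt5, beyond it, had a log2 fold change of 0.13 (edgeR adjusted p = 0.531). Mybph, a myosin-binding protein gene 88.8 kb from Myog, was at 0.0625, 0.0628 and 0.373 CPM in the wild-type tumours, against 1.44, 1.48 and 5.53 CPM in the mutant ones. It rose in DESeq2 (adjusted p = 3.16e-05, against 0.143 in edgeR) and got past the filter by its mutant levels alone. Its annotated span overlaps that of Adora1, so the 2 genes can share reads, and Adora1 had a log2 fold change of -0.51 (edgeR adjusted p = 0.225). On the other side of Myog, Ppfia4 at 4.24 kb had a log2 fold change of -0.59 and Tmem183a one of 0.05 (edgeR adjusted p = 0.345 and 0.696). Kcnc1 and Sergef, beside Myod1, had log2 fold changes of -0.50 and -0.39 and did not pass (edgeR adjusted p = 0.245 and 0.239). On the other side Otog had a log2 fold change of 0.84 (edgeR adjusted p = 0.478), and Ush1c was not tested. Lin7a and Acss3, beside Myf5, had log2 fold changes of -0.61 and -0.02 (edgeR adjusted p = 0.291 and 0.984). Ptprq, next to Myf6, and Otogl, beyond it, stayed at or below 0.192 CPM.

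The patterns most like Myog were those of muscle genes and of abundant genes that varied little. Over the 6 libraries, among 13803 protein-coding genes with a mean of at least 1 CPM, the highest Pearson r of log2(CPM + 1) with Myog was that of Srrm2 (0.996), a splicing factor at 1183 to 1342 CPM. Myh3, the embryonic myosin (0.996), Klhl41 (0.996) and Atp2a1 (0.994), both of the sarcomere and its calcium store, followed, and then Vdac2, a mitochondrial channel (0.994). Myh3 was at 0.755, 0.757 and 5.78 CPM in the wild-type tumours, against 36.8, 15.2 and 120.01 CPM in the mutant ones. The genes most like Myod1 held no other myogenic gene: Zfp984 (0.984), Gm3055 (0.967), the glycolytic enzyme gene Eno1 (0.964), Man1b1 (0.958) and Pcdhga9 (0.951). Eno1 was at 207, 237 and 489 CPM in the wild-type tumours, against 236, 308 and 377 CPM in the mutant ones. With 6 libraries and this many genes such values are descriptions. Zfp984 and Pcdhga9 belong to gene families with shared sequence, so their counts are uncertain, and the other genes were not checked for this.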

How the data were processed

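Total RNA of 3 wild-type and 3 Eed mutant mouse medulloblastomas was sequenced, and the authors deposited kallisto estimated counts and TPM per transcript, 1 file per sample, per the file headers. The submitters' processing notes name kallisto 0.43.1, GRCm38 and mm10. The annotation release and strand are not given in the sources used here. Estimated counts were summed per gene and rounded. Coordinates came from GENCODE M21 (GRCm38), promoters from RefSeq. The main test was edgeR 4.0.16 (TMM, default filter, quasi-likelihood) in R 4.3.3 with Benjamini-Hochberg adjustment at 0.05 over all genes tested, and its SE and intervals come from the F statistic. DESeq2 1.42.0 and limma 3.58.1 were alternatives. The edgeR script was tested on simulated data. The members, gene lists and tests were chosen with earlier results of these data known. Named genes were all members, up to 4 genes per list by smallest unadjusted p with a mean of at least 1 CPM, the 5 nearest patterns of Myod1 and Myog, and the 2 nearest protein-coding genes on each side of 5 loci; others were chosen after their values were seen. Not every gene under this rule is reported here. The floor of 3 counts covers counting error only.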

Additional observations from a re-analysis of the deposited data

How the results depend on the processing

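Six4 kept its sign in all 15 alternatives to the edgeR fit and Myog, Mef2c and Eya1 did so too. The genes called higher and lower over the whole table were 0 and 0 in the main test, 516 and 407 in DESeq2, 1 and 0 in limma-voom, 3 and 0 without a filter on low counts, and 0 to 6 and 0 to 3 without each library. The largest of these counts without a library came without mutant replicate 2 (6 and 3), and 2 and 2 were called without wild-type replicate 2. The number of members higher at an unadjusted p under 0.05 was 4, 2 on the scale of log2(TPM + 1), and 2 to 4 without each library, with 2 without wild-type replicate 2 or mutant replicate 3. The sign of Myod1 turned with the file code as a term (-0.013). Without each library it ran from -0.11 to 0.27, Cdh15 from -0.12 to 0.38 and Rbm24 from -0.24 to 0.19. The difference in share of Mef2c-201 ran from -4.60 to 7.15 percentage points and that of Rbm24-201 from -0.194 to 0.641 without each library. On the TPM scale Six4 had a log2 fold change of 0.42, with a pseudocount of 1 that exceeds its level. The causes were not tested.

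The labels number the replicates 1 to 3 in both groups. Whether same-numbered libraries deviated together from their group means was mixed (r = 0.227, 0.0624 and -0.135 for numbers 1 to 3). Mutant replicates 1 and 2 were closest to the wild-type library of their own number. Mutant replicate 3 was closest to wild-type replicate 2 (r = 0.193). These values do not settle whether the numbers mark pairs. The labels do not say that they do, so the numbers were not taken as pairs. With the replicate block 189 genes were called higher and 84 lower in edgeR. With the block Myog was called (log2 fold change 4.41, edgeR adjusted p = 0.0276; DESeq2 5.04, adjusted p = 4.12e-06) and Six4 was called in DESeq2 (1.48, adjusted p = 0.0341). Myf5 and Myf6 lie at or below 3 counts per library, and depth limits any statement on them. The DESeq2 fits without each library, with the file code and with the block were chosen after the data were seen.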
